A study of Mus musculus with 24 samples.

Results

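The genes described here are the chemokines and chemokine receptors of the mouse lung. They are 37 genes taken by name, each with at least 1 probe set that the annotation of the array gives to that gene alone, and 36 of them, 26 ligands and 10 receptors, had a signal that could be tested, among 11597 genes in all. Each of 24 mice gave the RNA of one Affymetrix MOE430A array, and the arrays make 8 groups of 3. The groups were Tnfr+/+ mice of the strain C57BL/6J and Tnfr-/- mice, each in filtered air or directly after 24, 48 or 72 h of continuous 0.3 ppm O3. Tnfr-/- mice lack both receptors for tumor necrosis factor (TNF) from birth and in every cell. They came from a B6.129S background and were not littermates of the Tnfr+/+ mice, so that strain and receptor loss cannot be told apart in any difference between the genotypes. All mice were young adult males, the RNA came from homogenates of the left lung, and each genotype had 1 air group, which served as the control of all 3 of its O3 groups. In whole lung RNA, fewer cells of a type and less RNA per cell cannot be told apart.

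Chemokines are small secreted proteins, held on tissue surfaces by glycosaminoglycans, that direct white blood cells along a concentration gradient. Their receptors are G protein-coupled receptors of the leukocyte surface, and one receptor usually reads several ligands: Ccr2 of monocytes reads Ccl2, Ccl7 and Ccl12, Ccr1 of monocytes and neutrophils reads Ccl3, Ccl6, Ccl7 and Ccl9, and the neutrophil receptor Cxcr2 reads Cxcl1, Cxcl2 and Cxcl5. In the lung, epithelial cells and alveolar macrophages make many of the inflammatory ligands after an irritant is inhaled, and TNF is a classical inducer of several of them through NF-kB. Other members are made in the resting lung, among them Cxcl15 of airway and alveolar epithelium and Cxcl12, the ligand of Cxcr4.

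Many of these genes lie next to each other in the genome. In RefSeq gene order Ccl2, Ccl7, Ccl11, Ccl12 and Ccl8 are neighbours on chromosome 11, and after 27 other genes Ccl9, Ccl6, Ccl3 and Ccl4 follow, also as neighbours. Cxcl5, Ppbp, Pf4, Cxcl15, Cxcl1 and Cxcl2 lie together on chromosome 5 with 1 other gene among them, and Ccr9, Ccr1, Ccr3 and Ccr2 lie on chromosome 9 with 3 genes after Ccr9 and 1 after Ccr1. Of the members that rose in O3, Ccl6, Ccl9 and their receptor Ccr1 are shown with the 250 bases before their start (RefSeq, build GRCm38.p6). All of them lie on the minus strand and are printed 5′ to 3′ in the direction of the gene, and the capitals mark matches to the motifs named below. The windows are chr11:83593088-83593337 for Ccl6, chr11:83578637-83578886 for Ccl9 and chr9:123968693-123968942 for Ccr1.
Ccl6: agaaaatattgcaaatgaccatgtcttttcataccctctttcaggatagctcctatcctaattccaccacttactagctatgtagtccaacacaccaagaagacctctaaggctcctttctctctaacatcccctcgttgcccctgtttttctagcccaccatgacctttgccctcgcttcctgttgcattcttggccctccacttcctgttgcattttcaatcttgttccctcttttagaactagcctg
Ccl9: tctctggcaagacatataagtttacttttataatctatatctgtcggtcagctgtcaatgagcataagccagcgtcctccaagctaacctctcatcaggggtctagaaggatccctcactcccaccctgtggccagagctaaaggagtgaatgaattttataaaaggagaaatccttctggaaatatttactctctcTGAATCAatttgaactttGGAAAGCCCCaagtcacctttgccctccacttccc
Ccr1: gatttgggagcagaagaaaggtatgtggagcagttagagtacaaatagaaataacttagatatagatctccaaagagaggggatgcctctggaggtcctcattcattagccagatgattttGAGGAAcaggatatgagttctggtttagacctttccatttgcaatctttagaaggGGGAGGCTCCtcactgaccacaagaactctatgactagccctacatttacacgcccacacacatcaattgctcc
The motifs searched, on both strands, were the NF-kB site, the AP-1 site TGANTCA, the interferon-related GAS (TTCNNNGAA) and ISRE (GAAANNGAAA), the antioxidant response element ARE (TGACNNNGC) and the PU.1 site GAGGAA. The Ccl6 window held none of them. The Ccl9 window held an AP-1 match at -53 and an NF-kB match on the opposite strand at -35, counted from the start of the gene. The Ccr1 window held a PU.1 match at -129 and an NF-kB match at -74.

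RefSeq windows were at hand for 27 of the 37 members. An NF-kB match was found before 8 of them (Ccl9, Ccl20, Cxcl1, Cxcl2, Cxcl10, Ccr1, Ccr3 and Ccr6), and 7.25% of the 32851 windows of all genes held one. An AP-1 match was found before 4 members and in 6.75% of all windows, a PU.1 match before 10 and in 23.3%, an ARE match before 3 and in 10.2%, a GAS match before 2 and in 7.02%, and an ISRE match before 2 and in 2.98%. The ARE match of Cxcl10 overlapped its AP-1 match, the PU.1 match of Ccr3 overlapped its NF-kB match, and the NF-kB matches of Cxcl1, Cxcl2, Cxcl10 and Ccr6 included pairs shifted by 1 base. A match of letters is a description of the sequence and no evidence of binding.

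Total signals per array ran from 14877040 to 16057693, and no array repeated another. One array stood apart, Tnfr+/+ O3 72 h replicate 1. Its mean correlation with the other arrays was 0.909, against 0.9325 to 0.9471 for the rest, and its Gapdh 3'/5' control ratio, a measure of RNA integrity, was 4.45 against 0.890 to 1.74. Its actin 3'/5' ratio was 1.18 and did not stand apart. The actin ratio, used below as a covariate, therefore does not mark this array. The actin 3'/5' ratio lay between 1.10 and 1.95 in Tnfr+/+ and between 1.01 and 1.27 in Tnfr-/- arrays. Of the deleted genes, the brighter probe set of Tnfrsf1b gave a signal of 356 to 525 in the 12 Tnfr+/+ arrays and 151.5 to 266 in the 12 Tnfr-/- arrays (adjusted p = 8.5e-07, limma), its other probe set did not pass the test (adjusted p = 0.62), and Tnfrsf1a gave 2030 to 3623 and 1399 to 2341 (adjusted p = 0.037). Whether these probe sets lie within the deleted sequence is not known here, so this check of the labels is partial. The lung itself was plain in the surfactant genes and other markers of alveolar type 2 cells, whose summed signal was 105953 to 120723 on all arrays, and in club cell markers at 64273 to 78885.

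Of the 37 members, 20 had a signal at or above 52.21, the 20th percentile of an array, on all 24 arrays, and 13 reached it on some arrays in air and some in O3. Ccl12, Cxcl9 and Ccr9 reached it on O3 arrays alone, on 7, 5 and 10 of 18, which means that they could enter the tests only through O3. The remaining gene, the macrophage chemokine Ccl3, was between 3.65 and 11.73 on the 24 arrays, was left out of all tests, and is not analysed further. A value of a probe set depends on its probes as well as on the transcript, so that levels are set here only against the array and not between genes. In every group 20 members lay below the array median of 231.1, with a median SD within groups of 0.74 on the log2 scale. The other 16 were at or above it in at least 1 group and had a median SD of 0.23, against 0.28 over all probe sets. Cxcl15, a chemokine of lung epithelium, lay at the 99.8th percentile of the probe sets with a SD of 0.10, Ccl6 at the 95.3rd and Cxcl12 at the 93.8th. A difference of a given size could thus be seen more readily in Cxcl15 or Ccl6 than in a dim member such as Cxcl9 or Ccl25.

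**Figure D1:**
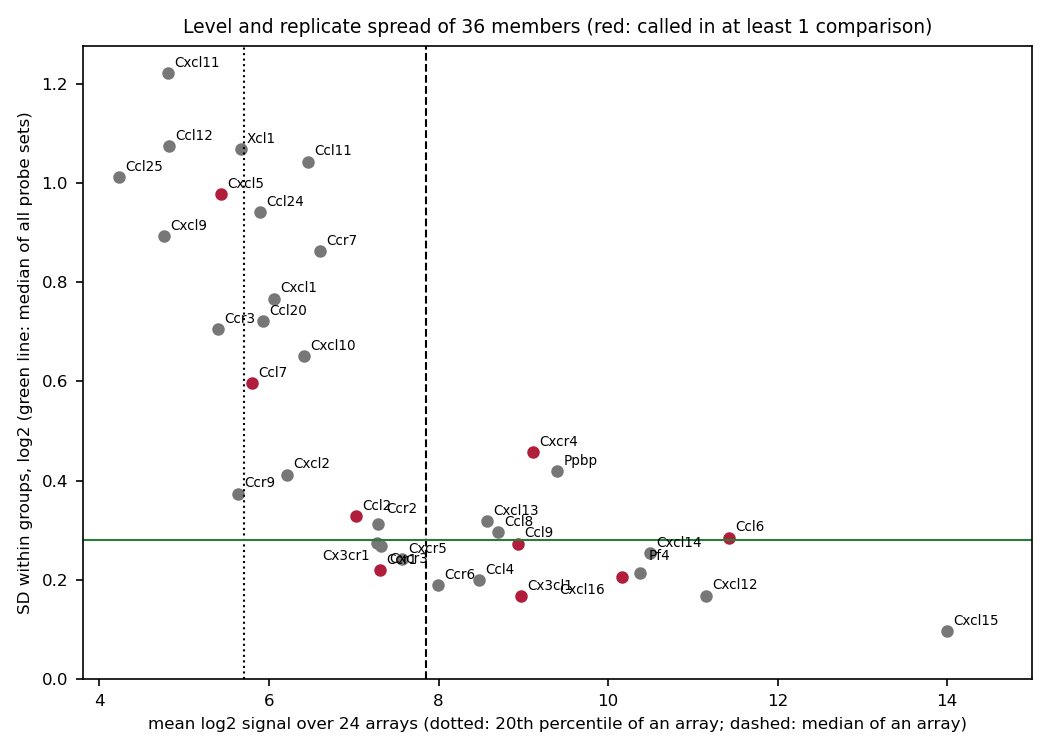
Mean log2 signal of each of the 36 members (horizontal axis) against its SD within groups (vertical axis, log2 scale), with the array median as a line. Members below the array median had a median SD of 0.74 and those at or above it 0.23.

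The first question was which members changed with O3 in each genotype. In Tnfr+/+ lungs no member passed an adjusted p of 0.05 after 24 or 48 h (limma), where 0.0828% and 1.17% of all 20537 probe sets did. At an unadjusted p under 0.05 there were 8 members after 24 h, all higher (22.2% of 36, against 5.89% of all probe sets), and 10 after 48 h, 7 of them higher (27.8%, against 11.6%). Ccr9, which could enter the tests only through O3, is counted as higher at both times. The methods' t-test, run as an ordinary t-test at its p of 0.01, picked Cxcl5 after 24 h and Ccr1 after 48 h, 1 of 36 each time. It picked 1.44% and 2.61% of all probe sets, and 0 members at either time after Benjamini-Hochberg adjustment. After 72 h it picked Ccl6, Cxcl10 and Ccr1, 3 of 36, and 3.35% of all probe sets, and again 0 members after adjustment. The study's legends name a moderated t-test. In the moderated fit used here (limma) an unadjusted p under 0.01 was reached by Ccl7 after 24 h (2.78%, against 1.72% of all probe sets). After 48 h it was reached by Ccl2, Ccl7, Ccl20, Ccr1 and Ccr9 (13.9%, against 4.53%), and after 72 h by 4 members (11.1%, against 7.86%). Ccl6, Ccl7, Cxcl16 and Ccr1 were higher after 72 h, 4 of 36 (11.1%), where 3.10% of all probe sets were called and 1.84% were higher. Tnfr-/- lungs had higher Ccl2 and Ccr1 after 24 h, 2 of 36 (5.56%), where 1.10% of probe sets were called and 0.726% were higher. Ccl2, Ccl6 and Ccr1 were higher in them after both 48 h and 72 h, 3 of 36 each time (8.33%), where 3.83% and 3.96% were called and 2.60% were higher each time. No member was called lower in any of these 6 comparisons. The 3 comparisons of a genotype share its air arrays, so that the recurrence of a gene among them is partly the recurrence of the same control values.

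Averaged over both genotypes, O3 raised Ccl2 and Ccl7 after 24 h, 2 of 36, where 1.28% of all probe sets were called and 0.945% were higher. Ccl2, Ccl6, Ccl7 and Ccr1 were raised after 48 h, 4 of 36, where 7.32% were called and 4.39% were higher. These 4 members with Ccl9 and Cxcl16 were raised after 72 h, 6 of 36, where 10.7% were called and 5.63% were higher. The shares of members called at 48 and 72 h were 11.1% and 16.7%. The median log2 change of the 36 members was 0.22 after 24 h, 0.14 after 48 h and 0.17 after 72 h, and that of all probe sets was -0.01, -0.03 and -0.03. After 72 h the ligands had a median of 0.35 and the receptors of -0.24.

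**Figure D2:**
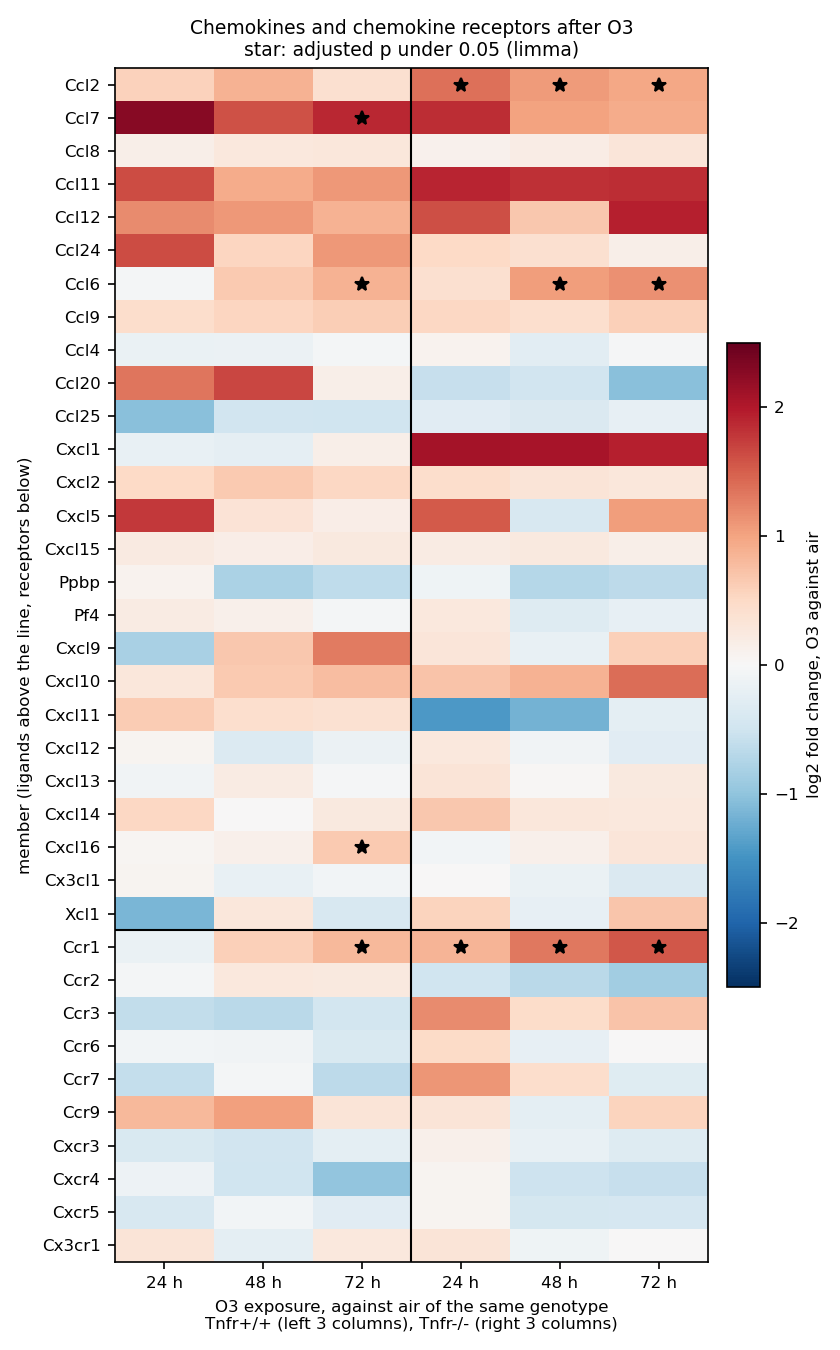
Log2 change after 24, 48 and 72 h of O3 against air in Tnfr+/+ and Tnfr-/- lungs for the 36 members, one to a line, with colour for the size and direction and a star where the adjusted p was under 0.05. The stars are on Ccl2, Ccl6, Ccl7, Cxcl16 and Ccr1, and all are on higher values.

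Of the ligands of Ccr2, Ccl2 and Ccl7 passed the test in O3. Ccl2 is the main monocyte attractant of inflamed tissue, and its signals in Tnfr+/+ lungs were 106, 122 and 64.4 in air, 154, 173 and 102 after 24 h, 179.6, 204 and 139 after 48 h, and 128, 132 and 112 after 72 h of O3. The Tnfr-/- lungs had 57.1, 87.6 and 78.03 in air, 192, 197 and 181 after 24 h, 107, 201 and 169 after 48 h, and 119, 152 and 160.5 after 72 h. Every Tnfr-/- lung in O3 was above every Tnfr-/- lung in air, whereas in Tnfr+/+ lungs only the 48 h group was clear of the air group. The change in Tnfr-/- lungs was 2.60-fold at 24 h (log2 1.38, SE 0.26, adjusted p = 0.01, limma), 2.10-fold at 48 h (adjusted p = 0.025) and 1.95-fold at 72 h (adjusted p = 0.044). The calls at 48 and 72 h were lost with the actin 3'/5' ratio as a covariate (adjusted p = 0.072 and 0.1) and in a fit of the compared arrays alone (0.098 and 0.11), the call at 24 h in the latter (0.069), and the call at 72 h also with no filter (0.051). In Tnfr+/+ lungs the log2 changes were 0.57, 0.87 and 0.40 (adjusted p = 0.82, 0.13 and 0.47). The difference between the genotypes at 24 h was 0.81 on the log2 scale and did not pass adjustment (unadjusted p = 0.042, adjusted p = 0.78), so the response was not shown to differ between them. In the mean of both genotypes Ccl2 rose 1.96-fold at 24 h (SE 0.19 on the log2 scale, adjusted p = 0.0094), 1.96-fold at 48 h (adjusted p = 0.0028) and 1.60-fold at 72 h (adjusted p = 0.023).

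Ccl7, which acts on Ccr2 and on other receptors and lies beside Ccl2, was dim in air. In Tnfr+/+ lungs it was 12.1, 30.4 and 16.2 in air, 67.7, 137 and 73.1 after 24 h, 72.6, 90.9 and 24.3 after 48 h, and 69.3, 84.9 and 51.03 after 72 h. Tnfr-/- signals were 53.5, 32.3 and 20.97 in air, 126, 98.1 and 133 after 24 h, 42.6, 75.8 and 91.05 after 48 h, and 51.2, 69.6 and 68.7 after 72 h. At 24 h every O3 lung of either genotype was above its air group, and at 48 h 1 lung of each genotype was back within the range in air. The mean of both genotypes was 4.16-fold higher at 24 h (log2 2.06, SE 0.33, adjusted p = 0.0022), 2.45-fold at 48 h (adjusted p = 0.02) and 2.64-fold at 72 h (adjusted p = 0.0093). Within one genotype Ccl7 passed the test in Tnfr+/+ lungs at 72 h, where it was 3.69-fold higher (adjusted p = 0.031), while its 4.85-fold value at 24 h did not (adjusted p = 0.09), nor did the 3.57-fold value in Tnfr-/- lungs at 24 h (adjusted p = 0.059). Of the air signals 1 of 6 reached 52.21, the 20th percentile of an array, so that the size of these folds is uncertain. With signals under 32 set to 32 the Tnfr+/+ value at 72 h was 1.07 on the log2 scale and was not called (adjusted p = 0.1).

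The other genes of the same cluster did not pass the test. Ccl12, a further Ccr2 ligand, had log2 values of 0.68 to 1.95 in the 6 comparisons with air (lowest adjusted p = 0.22), and Ccl11 (eotaxin-1, which attracts eosinophils through Ccr3) of 0.92 to 1.90 (lowest adjusted p = 0.23). Ccl12 could enter the tests only through O3 arrays, so a value above 0 was favoured for it in advance. The 6 comparisons also share 1 air group for each genotype. Spreads were wide: Ccl11 signals ran from 7.72 to 225 over the 24 arrays and Ccl12 from 8.38 to 86.2. Ccl8 was between 0.11 and 0.30 (lowest adjusted p = 0.58). Ccr2 itself had log2 values of -0.06, 0.27 and 0.24 at 24, 48 and 72 h in Tnfr+/+ lungs and of -0.50, -0.68 and -0.86 in Tnfr-/- lungs, the last with an adjusted p of 0.061. Its other probe sets overlapped with air in Tnfr-/- lungs at every time. A probe set almost as bright was 161 to 237 in air and 107 to 183 at 72 h, and a dimmer probe set 103 to 167 and 106 to 151.

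The second group was Ccr1 and its ligands. Ccl6, a CC chemokine that macrophages make in abundance, was 1900, 2011 and 2214 in Tnfr+/+ air lungs, 2168, 1747 and 2040 after 24 h, 3380, 4879 and 2003 after 48 h, and 3429, 3700 and 4094 after 72 h. For Tnfr-/- lungs the signals were 1759, 1929 and 1846 in air, 3024, 2340 and 2063 after 24 h, 3784, 4077 and 3526 after 48 h, and 3661, 3615 and 5169 after 72 h. At 24 h the Tnfr+/+ lungs overlapped with air and the Tnfr-/- lungs lay above it, at 48 h all but 1 Tnfr+/+ lung were well above, and all 6 values at 72 h were above both air groups. In the mean of both genotypes Ccl6 was not called at 24 h (log2 0.18), and was 1.80-fold higher at 48 h (SE 0.16 on the log2 scale, adjusted p = 0.0029) and 2.02-fold at 72 h (adjusted p = 0.00049). It rose 1.83-fold in Tnfr+/+ lungs at 72 h (adjusted p = 0.045) and in Tnfr-/- lungs 2.06-fold at 48 h (adjusted p = 0.014) and 2.22-fold at 72 h (adjusted p = 0.0066). The second probe set of Ccl6 was called in the mean of both genotypes at the same times, with log2 values of 0.76 at 48 h (adjusted p = 0.0073) and 0.91 at 72 h (adjusted p = 0.0013).

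Ccl9, the neighbour of Ccl6, also attracts cells through Ccr1. It was 457, 336 and 369 in Tnfr+/+ air lungs, 483, 593 and 485 after 24 h, 559, 778 and 396 after 48 h, and 497, 612 and 663 after 72 h. Among Tnfr-/- lungs it was 334, 376 and 393 in air, 496, 636 and 466 after 24 h, 492, 557 and 430.5 after 48 h, and 507, 457 and 731 after 72 h. Except for 1 Tnfr+/+ lung at 48 h, each O3 lung was above the air lungs of its genotype, by a small margin. Ccl9 was called at 72 h in the mean of both genotypes, 1.52-fold higher (log2 0.60, SE 0.16, adjusted p = 0.018), and its values at 24 and 48 h were 0.48 each (adjusted p = 0.18 and 0.072). Its second probe set had 0.45 at 72 h and was not called. The call of Ccl9 at 72 h depended on 1 array, since without Tnfr-/- O3 72 h replicate 3 the value was 0.50 (adjusted p = 0.054). With any 1 of the compared arrays left out the log2 value stayed between 0.50 and 0.67.

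Ccr1, the receptor of these ligands on monocytes, macrophages and neutrophils, had the lowest adjusted p of all members in O3. It was 129.6, 132 and 125 in Tnfr+/+ air lungs, 91.9, 124 and 134 after 24 h, 207, 206 and 177 after 48 h, and 189, 229.8 and 261 after 72 h. The Tnfr-/- lungs had 61.3, 106 and 86.6 in air, 159, 126 and 162 after 24 h, 234, 197 and 189 after 48 h, and 239.5, 237 and 247 after 72 h. At 48 and 72 h both genotypes were far clear of air, and at 24 h the Tnfr-/- lungs alone were. In the mean of both genotypes the log2 value at 24 h was 0.34 (adjusted p = 0.27), and Ccr1 was 1.95-fold higher at 48 h (SE 0.13 on the log2 scale, adjusted p = 0.00011) and 2.26-fold at 72 h (adjusted p = 7.8e-06). In Tnfr-/- lungs it rose 1.79-fold at 24 h (adjusted p = 0.027), 2.49-fold at 48 h (adjusted p = 0.0003) and 2.92-fold at 72 h (adjusted p = 4.9e-05). In Tnfr+/+ lungs it rose 1.74-fold at 72 h (adjusted p = 0.021), with log2 values of -0.16 at 24 h and 0.61 at 48 h (adjusted p = 0.14) before that. The air value of Tnfr-/- lungs was lower than that of Tnfr+/+ lungs by a log2 of 0.64 that did not pass adjustment (unadjusted p = 0.0024, adjusted p = 0.31), and this air group is the reference of all 3 Tnfr-/- values. A second probe set of Ccr1 was too dim to be tested. With the mean of both probe sets in place of the brighter one every call of Ccr1 was lost, with log2 values of 0.64 at 48 h (adjusted p = 0.3) and 1.05 at 72 h (adjusted p = 0.061) in the mean of both genotypes, 0.55 and 0.98 in Tnfr-/- lungs (adjusted p = 0.61 and 0.33) and 1.12 in Tnfr+/+ lungs at 72 h (adjusted p = 0.23).

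**Figure D3:**
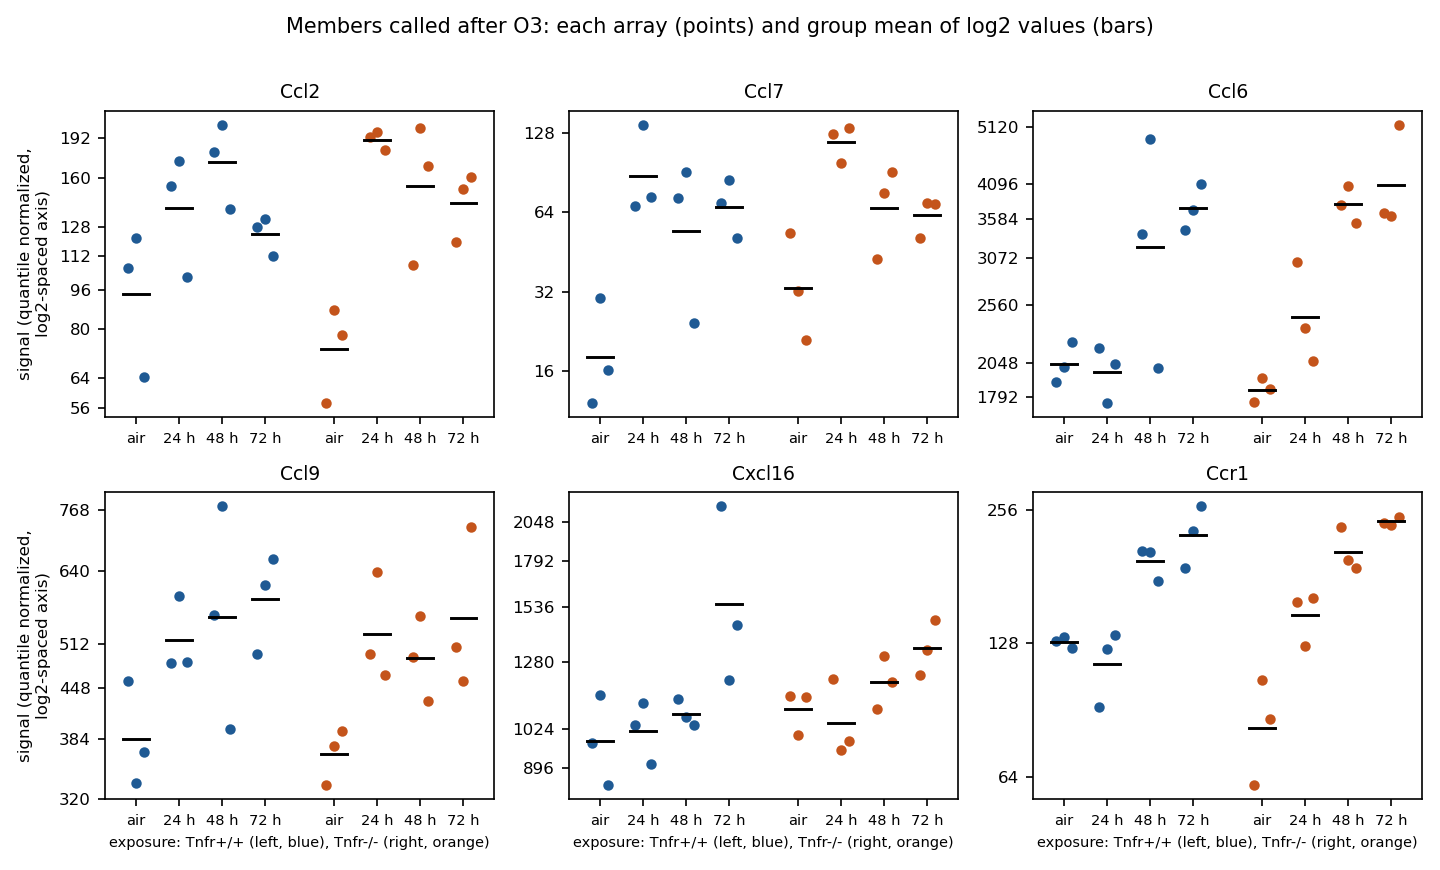
Signal of Ccl2, Ccl7, Ccl6, Ccl9, Cxcl16 and Ccr1 on each array (vertical axes, log scale) in the 8 groups, Tnfr+/+ and Tnfr-/-, in air and after 24, 48 and 72 h of O3, with the group mean as a bar. Ccl2 and Ccl7 were higher from 24 h in the mean of both genotypes, whereas Ccl6 and Ccr1 were higher from 48 h.

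Cxcl16 is made as a membrane protein by macrophages and epithelium, attracts T cells and NKT cells through Cxcr6, and takes up oxidized lipoprotein. It was 976, 1144 and 847 in Tnfr+/+ air lungs, 1035, 1115 and 909.7 after 24 h, 1132, 1065 and 1035 after 48 h, and 2155, 1204 and 1447 after 72 h. Tnfr-/- signals were 1141, 1003 and 1137 in air, 1209, 952 and 982 after 24 h, 1092, 1307 and 1195 after 48 h, and 1226, 1330 and 1474 after 72 h. The 24 and 48 h values lay within or near the range in air, the 72 h values of both genotypes lay above it, and the highest value came from the array that stood apart. At 72 h Cxcl16 was 1.39-fold higher in the mean of both genotypes (log2 0.48, SE 0.12, adjusted p = 0.017) and 1.58-fold higher in Tnfr+/+ lungs (adjusted p = 0.043), and in Tnfr-/- lungs the log2 value was 0.30 (adjusted p = 0.42). Without Tnfr+/+ O3 72 h replicate 1 the mean of both genotypes was 0.36 (adjusted p = 0.026) and the Tnfr+/+ value 0.43 (adjusted p = 0.15). Its second probe set was called at 72 h in the mean of both genotypes (log2 0.54, adjusted p = 0.0046) and in Tnfr-/- lungs (0.64, adjusted p = 0.031).

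The array that stood apart also bore on the other Tnfr+/+ calls at 72 h. Without it Ccr1 kept its call (log2 0.93, adjusted p = 0.017), while Ccl6 (0.93, adjusted p = 0.068) and Ccl7 (1.86, adjusted p = 0.074) kept their size and lost the call. In the mean of both genotypes at 72 h all 6 members kept their call without it, with log2 values of 0.67 for Ccl2, 1.04 for Ccl6, 1.39 for Ccl7, 0.66 for Ccl9 and 1.24 for Ccr1. Most calls within a single genotype were lost with 1 or more single arrays left out, the Tnfr-/- calls of Ccr1 at 48 and 72 h and of Ccl6 at 72 h being the exceptions. The Tnfr+/+ calls at 72 h were lost for Ccl6 without any 1 of the 6 arrays compared (adjusted p up to 0.12), for Ccl7 without air replicate 1 or 3 or O3 replicate 1 or 2 (up to 0.12), for Cxcl16 without air replicate 1 or 3 or O3 replicate 1 or 3 (up to 0.17), and for Ccr1 without any 1 air replicate or O3 replicate 3 (up to 0.076). Among the Tnfr-/- calls, Ccl2 was lost at 24 h without air replicate 1 or O3 replicate 1 (up to 0.057), at 48 h without air replicate 1 or 3 or O3 replicate 2 or 3 (up to 0.15), and at 72 h without any 1 array but O3 replicate 1 (up to 0.19). Ccr1 was lost at 24 h without air replicate 1 or 3 or O3 replicate 1 or 3 (up to 0.12), and Ccl6 at 48 h without air replicate 1 or 3 or O3 replicate 2 (up to 0.068).

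The neutrophil attractants did not pass the test against air. Cxcl5, made mainly by alveolar epithelium, was 1.77 higher on the log2 scale in Tnfr+/+ lungs (adjusted p = 0.76) and 1.53 in Tnfr-/- lungs (adjusted p = 0.41) after 24 h. Cxcl2 had log2 values of 0.28 to 0.66 over the 6 comparisons (lowest adjusted p = 0.44). Cxcl15 had 0.16 to 0.25, all above 0 (lowest adjusted p = 0.21). Ppbp and Pf4 are stored in platelets, and Ppbp had -0.75 at 48 h and -0.65 at 72 h in the mean of both genotypes (adjusted p = 0.057 and 0.083), while Pf4 had -0.10 and -0.13. The neutrophil markers measured beside them, 9 of 13 named, summed to 4839 to 5478 in Tnfr+/+ air lungs, 2482 to 3211 after 24 h, 2145 to 5112 after 48 h and 4511 to 5386 after 72 h. In Tnfr-/- lungs they summed to 2398 to 3145 in air, 2988 to 5958 after 24 h, 2431 to 3365 after 48 h and 2868 to 3377 after 72 h. The sum was lower than in air without overlap in Tnfr+/+ lungs at 24 h and reached its highest value in 1 Tnfr-/- lung at 24 h, and none of the 9 markers was called in any of the 6 comparisons with air.

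The interferon-inducible ligands of Cxcr3 were mostly dim. Cxcl10 had a log2 value of 1.09 at 72 h in the mean of both genotypes (adjusted p = 0.057). Its Tnfr-/- values of 0.70, 0.86 and 1.40 at 24, 48 and 72 h rested on 1 dim air array, and without Tnfr-/- air replicate 2 they were -0.22, -0.06 and 0.48, and the mean at 72 h was 0.63 (adjusted p = 0.061). In Tnfr+/+ lungs the signal of Cxcl10 was 65.5 to 80.9 in air and 64.00 to 108 after 24 h. It was 91.6 to 148 after 48 h and 108 to 143 after 72 h there, clear of air at these later times. Cxcl9 had -0.82 to 1.31 (lowest adjusted p = 0.33) and Cxcl11 -1.45 to 0.63 (lowest adjusted p = 0.55), which spans both directions. Of the homeostatic ligands, Cxcl12 had -0.34 to 0.26 and the B cell attractant Cxcl13 -0.09 to 0.33. The second probe set of Cxcl12 went higher in Tnfr-/- lungs, from 617 to 767 in air to 971 to 1045 after 48 h and 841 to 993 after 72 h. In Tnfr+/+ lungs this probe set overlapped with air at every time. The macrophage chemokine Ccl4 had -0.26 to 0.09. Of the rest, the eosinophil attractant Ccl24 had 0.14 to 1.64, Ccl25, the ligand of Ccr9, -1.05 to -0.20, the lymphocyte-made Xcl1 -1.14 to 0.69, and Cx3cl1, the ligand of Cx3cr1, -0.37 to 0.08. By the brightest probe set of each gene, none of these passed the test in any comparison of a genotype with its air group.

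Cxcl14, an epithelial chemokine, showed what the choice of probe set can do. The brighter probe set was 1224, 1161 and 1095 in Tnfr+/+ air lungs, 1641, 1977 and 1393 after 24 h, 1454, 943 and 1147 after 48 h, and 1278, 1805 and 1119 after 72 h. For Tnfr-/- lungs the signals were 1702, 1072 and 1139 in air, 2548, 1759 and 1899 after 24 h, 1636, 1544 and 1455 after 48 h, and 1542, 1576 and 1465 after 72 h. Every lung at 24 h was above its air group, and the later groups overlapped with air. The mean of both genotypes at 24 h was 0.60 on the log2 scale and just missed the threshold (adjusted p = 0.054). The second, dimmer probe set was called, with 1.50 at 24 h (adjusted p = 0.00041), 1.09 at 48 h (adjusted p = 0.0019) and 0.95 at 72 h (adjusted p = 0.0043). This probe set also lay higher in Tnfr-/- lungs. It was 196 to 342 in Tnfr+/+ and 429 to 586.5 in Tnfr-/- air lungs. The ranges were 543 to 696 and 1367 to 1945 at 24 h, and 377 to 788.5 and 1007 to 1239 at 48 h. At 72 h the genotypes overlapped.

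Apart from Ccr1, no receptor passed the test in O3. Ccr9, the receptor of gut-homing lymphocytes, was 33.2, 40.3 and 35.7 in Tnfr+/+ air lungs, 37.4, 92.3 and 75.7 after 24 h, 62.7, 107 and 60.1 after 48 h, and 37.7, 41.9 and 59.3 after 72 h. Among Tnfr-/- lungs it was 38.5, 46.98 and 40.5 in air, 51.5, 70.3 and 40.4 after 24 h, 42.1, 35.95 and 28.8 after 48 h, and 59.5, 54.8 and 70.97 after 72 h. The highest value was in a Tnfr+/+ lung at 48 h, where the group was clear of air with a log2 change of 1.03 that did not pass (adjusted p = 0.11). Because Ccr9 entered the tests only through O3 arrays, a higher value in O3 was favoured in advance. Cxcr4, the receptor of Cxcl12, had -0.79 at 72 h in the mean of both genotypes (adjusted p = 0.052). The log2 values at 72 h in the mean of both genotypes were 0.14 for Cx3cr1 of monocytes, 0.12 for Ccr3 of eosinophils, -0.19 for Ccr6, -0.29 for Cxcr3 of activated T cells, -0.36 for Cxcr5 of B cells and -0.48 for Ccr7 of naive T cells and dendritic cells.

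Markers of alveolar macrophages moved at the same times as Ccl6 and Ccr1. Of 14 named markers 11 were measured, and 6 of them (Marco, Chil3, Mrc1, Cd68, Ctsk and Plet1) were higher at 72 h in the mean of both genotypes, with log2 values of 1.36 for Ctsk, 1.05 for Cd68, 0.90 for Chil3 and 0.77 for Marco. Their count was 1 at 24 h (Cd68) and 6 at 48 h. Bright markers weigh most in a sum, and Chil3 had a mean log2 signal of 12.40 in air and 13.45 at 48 h. The summed signal of the 11 markers was 10004 to 14928 in Tnfr+/+ air lungs, 13357 to 15108 after 24 h, 17445 to 27350 after 48 h and 17942 to 22017 after 72 h. In Tnfr-/- lungs the sum was 11939 to 13391 in air, 14518 to 18409 after 24 h, 21994 to 24286 after 48 h and 18610 to 20380 after 72 h. At 48 and 72 h every sum in O3 was above every sum in air. The 9 measured markers of monocytes and interstitial macrophages summed to 32676 to 34497 in Tnfr+/+ air lungs, 32884 to 36313 at 48 h and 32244 to 33329 at 72 h. In Tnfr-/- lungs they summed to 32834 to 35831 in air, 35955 to 37247 at 24 h, 30927 to 33077 at 48 h and 30445 to 33266 at 72 h. Of them Csf1r was lower at 48 h (log2 -0.38, adjusted p = 0.012, limma) and Cd14 higher (0.51, adjusted p = 0.016). The part of either list in the values of Ccl6, Ccl9, Cxcl16 and Ccr1 was not tested.

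**Figure D4:**
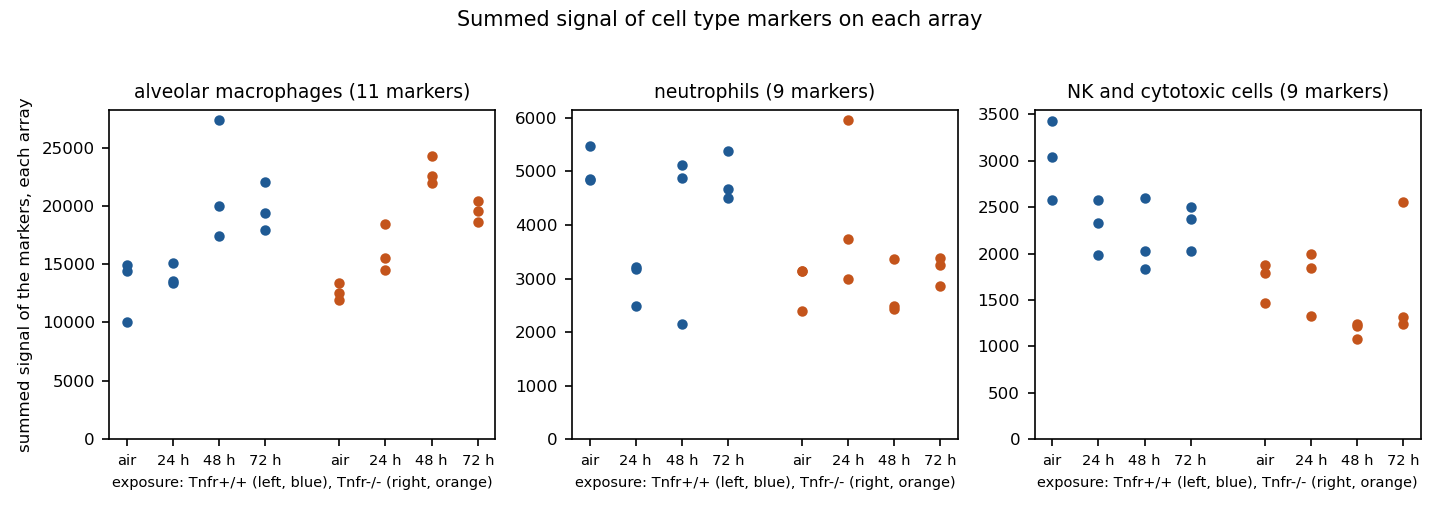
Summed signal of the measured markers of alveolar macrophages, neutrophils and NK cells on each array (vertical axes) in the 8 groups. The alveolar macrophage sum was 17445 to 27350 in Tnfr+/+ lungs after 48 h of O3, against 10004 to 14928 in air.

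The second question was how the members differed between Tnfr-/- and Tnfr+/+ lungs. Within a single exposure no member passed an adjusted p of 0.05 (limma), where 0.0876% of all probe sets passed in air, 1.00% at 24 h, 0.166% at 48 h and 0.161% at 72 h. An unadjusted p under 0.05 was reached by 5 members in air, 4 of them lower, by 6 after 24 h, 3 of them lower, by 7 after 48 h, 5 of them lower, and by 4 after 72 h, 3 of them lower. Among all probe sets 6.92%, 14.0%, 10.8% and 11.1% reached it. In air the methods' t-test picked 2 members at its p of 0.05, where it picked 8.41% of all probe sets. After O3, where the methods name another test, the same t-test picked 4, 5 and 3 members at 24, 48 and 72 h and 14.4%, 10.1% and 5.61% of all probe sets, and after Benjamini-Hochberg adjustment it picked 0 members at any exposure. In the mean of the 4 exposures Cxcl5 and Cx3cl1 were lower and Cxcr4 was higher in Tnfr-/- lungs, 3 of 36 (8.33%), where 5.65% of all probe sets were called, 3.17% higher and 2.47% lower. Of the 36 members 14 were above 0 in this mean, and the median was -0.10, against -0.01 over all probe sets. These counts use the brightest probe set of each gene. The second probe set of Cxcl14, given above, was higher in Tnfr-/- lungs without overlap in air, at 24 h and at 48 h.

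Cxcl5, a neutrophil attractant of the alveolar epithelium, gave the largest of these differences. Its signals in Tnfr+/+ lungs were 47.5, 55.3 and 67.5 in air, 218, 211 and 154 after 24 h, 94.2, 52.9 and 71.5 after 48 h, and 102, 68.7 and 36.1 after 72 h. The Tnfr-/- lungs had 32.9, 6.66 and 16.7 in air, 113, 11.3 and 68.8 after 24 h, 21.99, 20.6 and 3.58 after 48 h, and 23.96, 34.2 and 38.8 after 72 h. The genotypes did not overlap in air, at 24 h or at 48 h, and did at 72 h. Most Tnfr-/- signals were below the 20th percentile of an array, so the size of the difference is less certain than its direction. Cxcl5 was 0.269-fold in Tnfr-/- against Tnfr+/+ lungs in the mean of the exposures (log2 -1.89, SE 0.37, 95% interval -2.68 to -1.11, adjusted p = 0.0076). Over single exposures the log2 values were -1.87 in air, -2.11 at 24 h, -2.59 at 48 h and -1.0 at 72 h, with adjusted p values from 0.2 to 0.63.

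Cx3cl1 (fractalkine), the membrane-bound ligand of Cx3cr1, gave opposite answers in its brighter and its second probe set. The brighter probe set was 542, 655 and 556 in Tnfr+/+ air lungs, 640.4, 588 and 617 after 24 h, 453, 495 and 588 after 48 h, and 486, 640.2 and 546 after 72 h. Tnfr-/- signals were 491, 557 and 424 in air, 534, 441 and 498 after 24 h, 392, 469.8 and 443 after 48 h, and 355, 339 and 448 after 72 h. The Tnfr-/- lungs were lower and did not overlap with Tnfr+/+ lungs at 24 and 72 h, and the mean difference was 0.789-fold (log2 -0.34, SE 0.07, adjusted p = 0.013). The second probe set was between 51.8 and 226 in Tnfr+/+ and between 197 and 248 in Tnfr-/- lungs, and was higher in Tnfr-/- lungs by a log2 of 0.92 (adjusted p = 0.0069). The direction of Cx3cl1 as a gene is therefore not settled by these arrays, and with the mean of its probe sets the difference was 0.26 (adjusted p = 0.41). That mean also took in a further, dim probe set, with signals of 3.23 to 69.98.

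Cxcr4, the receptor through which Cxcl12 retains leukocytes and progenitors, was 610.0, 531 and 611 in Tnfr+/+ air lungs, 584, 472 and 562 after 24 h, 563, 529 and 235 after 48 h, and 143, 350.3 and 501 after 72 h. For Tnfr-/- lungs the signals were 1055, 708 and 771 in air, 703, 1169 and 818 after 24 h, 512, 653 and 585 after 48 h, and 535, 582 and 550.3 after 72 h. The Tnfr-/- lungs were higher without overlap in air, at 24 h and at 72 h, where the lowest Tnfr+/+ value came from the array that stood apart. The mean difference was 1.58-fold (log2 0.66, SE 0.18, adjusted p = 0.037), and 0.53 without that array (adjusted p = 0.033). The call was lost with any 1 of 12 of the 24 arrays left out, with adjusted p values up to 0.067. These were Tnfr+/+ air replicates 1, 2 and 3, Tnfr+/+ O3 24 h replicate 2, Tnfr+/+ O3 48 h replicate 3, Tnfr-/- air replicates 1 and 3, Tnfr-/- O3 24 h replicate 2, Tnfr-/- O3 48 h replicates 2 and 3 and Tnfr-/- O3 72 h replicates 2 and 3. All 3 genotype calls were also lost with the actin 3'/5' ratio, which was higher in most Tnfr+/+ arrays, as a covariate: the adjusted p was then 0.33 for Cxcl5 (log2 -1.40), 0.17 for Cx3cl1 (-0.39) and 0.43 for Cxcr4 (0.57).

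**Figure D5:**
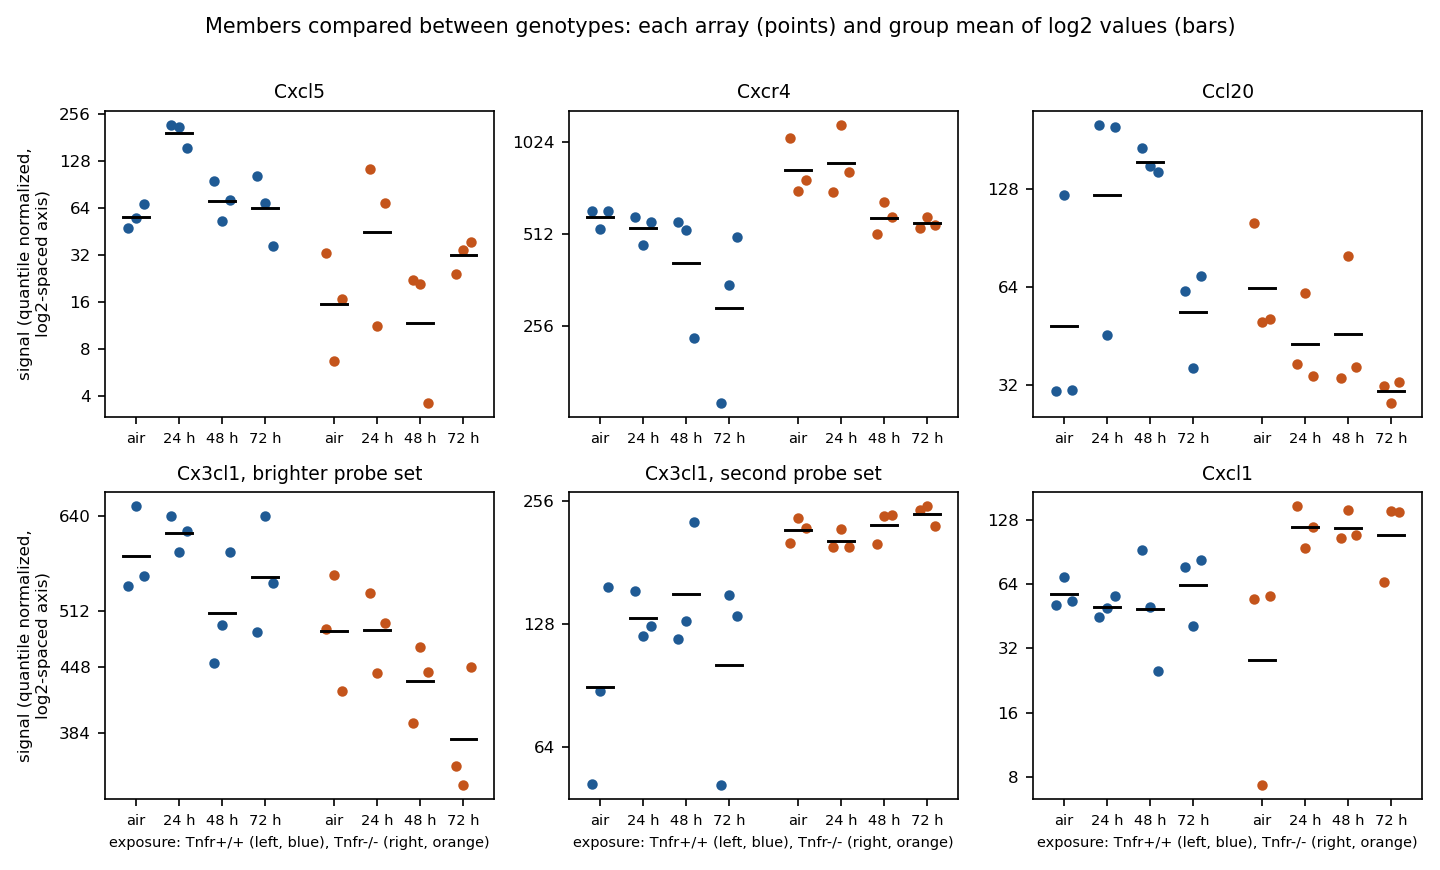
Signal of Cxcl5, Cxcr4, Ccl20, the brighter and the second probe set of Cx3cl1, and Cxcl1 on each array (vertical axes, log scale) in the 8 groups, with the group mean as a bar. Cxcl5 was lower in Tnfr-/- lungs in air, at 24 h and at 48 h without overlap, and the probe sets of Cx3cl1 shown differed between the genotypes in opposite directions.

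Other members with the lowest adjusted p between the genotypes did not pass the test. Ccl20, which attracts lymphocytes and dendritic cells through Ccr6, was 30.5, 123 and 30.8 in Tnfr+/+ air lungs, 203, 45.6 and 199 after 24 h, 172, 151 and 145 after 48 h, and 62.3, 35.9 and 69.3 after 72 h. Among Tnfr-/- lungs it was 101, 50.00 and 51.03 in air, 37.1, 61.5 and 33.95 after 24 h, 33.5, 79.6 and 36.3 after 48 h, and 31.7, 28.00 and 32.5 after 72 h. The high values were in Tnfr+/+ lungs in O3, clear of the Tnfr-/- lungs at 48 and 72 h, and the mean difference was -0.93 (adjusted p = 0.057).

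Its receptor Ccr6 was 263, 330.0 and 308 in Tnfr+/+ air lungs and 236, 207 and 240.0 in Tnfr-/- air lungs, with a log2 difference of -0.40 in air (adjusted p = 0.6). In O3 it ran from 195 to 318 in Tnfr+/+ and from 164 to 360.3 in Tnfr-/- lungs. The genotypes were apart in air and at 48 h, where Ccr6 was 265, 260.2 and 318 in Tnfr+/+ and 253, 164 and 182 in Tnfr-/- lungs (log2 -0.52, adjusted p = 0.25). Cxcr5, the receptor of Cxcl13 on B cells, was 166, 138 and 189.7 in Tnfr+/+ and 167, 263 and 286 in Tnfr-/- lungs after 24 h (log2 0.51, adjusted p = 0.24), which overlap in 1 lung, and 138 to 236 and 145 to 286 over all arrays. The 9 B cell markers measured summed to 2657 to 3197 in Tnfr+/+ and 5332 to 6631 in Tnfr-/- lungs at 24 h, 5 of them (Ms4a1, Cd79a, Cd79b, Cd22 and Fcer2a) were higher, and their part in the Cxcr5 value was not tested. Cxcr3 was 189.5, 158 and 183 in Tnfr+/+ and 111, 131 and 139 in Tnfr-/- lungs after 72 h (log2 -0.48, adjusted p = 0.43), clear of each other. The 11 T cell markers measured summed to 2510 to 2845 in Tnfr+/+ and 1500 to 1979 in Tnfr-/- lungs at 72 h, 1 of them, Cd3d, was lower (log2 -2.42, adjusted p = 0.028), and their part in the Cxcr3 value was not tested. Ccr9 was lower in Tnfr-/- lungs at 48 h by a log2 of 1.07 that did not pass (adjusted p = 0.2).

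Markers of natural killer cells differed with the genotype too. Of the 9 measured, 5 (Klrd1, Gzma, Gzmb, Nkg7 and Klra8) were lower in Tnfr-/- lungs in the mean of the exposures, and their summed signal was 1828 to 3429 in Tnfr+/+ and 1078 to 2550 in Tnfr-/- lungs. The neutrophil sum in air was lower in Tnfr-/- lungs, as given above. The part of these in the values of Cxcl5, Cx3cl1 and Cxcr4 was not tested.

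The third question was whether the response to O3 differed between the genotypes. No member passed in the interaction at any time (limma), where 0.00974% of all probe sets passed at 24 h, 0.00% at 48 h and 0.00487% at 72 h. An unadjusted p under 0.05 was reached by 6 members at 24 h, 5 at 48 h and 3 at 72 h, against 6.22%, 5.51% and 5.31% of all probe sets, and the methods' t-test was not run on interactions. Chosen after its values were seen, because it was among them at all 3 times together with Ccr1, is Cxcl1 (KC), a neutrophil attractant of epithelium and macrophages. Its signals in Tnfr+/+ lungs were 51.05, 69.1 and 53.5 in air, 44.99, 49.7 and 56.3 after 24 h, 92.5, 50.1 and 25.00 after 48 h, and 77.05, 40.6 and 82.7 after 72 h. The Tnfr-/- lungs had 54.7, 7.32 and 56.1 in air, 148, 94.5 and 119 after 24 h, 105, 142 and 108 after 48 h, and 65.2, 141 and 139 after 72 h. Every Tnfr-/- lung in O3 was above the Tnfr-/- air lungs, of which replicate 2 was far below the others, and Tnfr+/+ lungs overlapped with air throughout. The log2 changes were 2.07, 2.06 and 1.94 in Tnfr-/- lungs (adjusted p = 0.11, 0.058 and 0.075) and -0.20, -0.23 and 0.15 in Tnfr+/+ lungs. The interaction was 2.27 at 24 h (unadjusted p = 0.014, adjusted p = 0.66), 2.29 at 48 h (0.013 and 0.81) and 1.79 at 72 h (0.045 and 0.87). Without Tnfr-/- air replicate 2 the changes in Tnfr-/- lungs were 1.10, 1.08 and 0.97 (adjusted p = 0.37, 0.22 and 0.29), and the interaction was 1.29, 1.32 and 0.82.

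The interaction of Ccr1 was 1.00 at 24 h (unadjusted p = 0.001, adjusted p = 0.39), 0.71 at 48 h (adjusted p = 0.81) and 0.74 at 72 h (adjusted p = 0.87), each with the larger rise in Tnfr-/- lungs. That of Ccl20 went the other way, with -1.91 at 24 h (unadjusted p = 0.025, adjusted p = 0.72) and -2.15 at 48 h (unadjusted p = 0.013, adjusted p = 0.81). Over all 8 groups together, 6 of 36 members differed by the F test, Ccr1 (F = 17.56, adjusted p = 0.00011), Ccl6 (adjusted p = 0.0053), Ccl7 (adjusted p = 0.014), Ccl2 (adjusted p = 0.019), Cxcl5 (adjusted p = 0.022) and Cx3cl1 (adjusted p = 0.044), where 8.29% of all probe sets did.

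Of 80 further genes of the chemokine system 66 were measured, and 22 were called in at least 1 comparison. The same share over all probe sets was not counted, so the 22 are not read as a response of this system. In the mean of both genotypes 4.39% of all probe sets were higher and 2.93% lower at 48 h, and 5.63% and 5.05% at 72 h. Among 13 measured other ligands and receptors, 2 rose at 48 h in the mean of both genotypes, and at 72 h 2 rose and 1 fell. Among them was Ccl17, the ligand of Ccr4 made by dendritic cells and macrophages, with log2 changes of 1.32 at 24 h, 1.77 at 48 h (adjusted p = 2.7e-07) and 1.56 at 72 h (adjusted p = 5.7e-07). Cxcl17, a mucosal chemokine, was higher at 48 h (0.61, adjusted p = 0.0019), and Ccl5 (RANTES) was lower in Tnfr-/- lungs (-0.70, adjusted p = 0.0014). Of 7 genes listed as atypical receptors and decoys 2 were lower at 48 h, the scavenger receptor Ackr4 and Rarres2, and 2 at 72 h, Ccrl2 and Rarres2, where Rarres2 is a ligand. Ackr4 was also higher in Tnfr-/- than in Tnfr+/+ lungs at 24 h (2.25, adjusted p = 0.022, limma) and in the mean of the exposures (1.14, adjusted p = 0.0077). Of 9 genes for presentation and cleavage of ligands 3 were higher at 72 h, among them the macrophage elastase Mmp12 (2.05, adjusted p = 0.00011) and the membrane-bound metalloproteinase Mmp14 (0.56, adjusted p = 0.00064). Of 16 cytokines that induce or act beside chemokines 3 were higher at 72 h, and Il33, an alarmin of the alveolar epithelium, was higher at 48 h (0.81, adjusted p = 0.00032). Of 21 genes of receptor signalling 1 was higher and 2 were lower at 72 h, with the G protein subunit Gnb1 at -0.50 (adjusted p = 0.0083), and Gnb1 was higher in Tnfr-/- lungs by 0.80 (adjusted p = 1.1e-05). Rarres2 (chemerin), a chemoattractant that is not a chemokine, was lower at 72 h (-0.78, adjusted p = 0.00088). The median log2 change at 72 h was 0.06 for other ligands and receptors, -0.14 for atypical receptors, -0.02 for signalling, 0.16 for presentation and cleavage, and -0.17 for the cytokines, against -0.03 over all probe sets.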

How the data were processed

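The authors hybridized biotin-labelled RNA from 24 left lungs to Affymetrix MOE430A arrays. The deposited values are 1 linear intensity for each of 22644 probe sets, made by the authors with MAS5 in Affymetrix Expression Console according to the submitters' processing notes. Quantile normalization over the 24 arrays was followed by a floor of 1 and log2. The 64 control probe sets were left out, and a probe set stayed in if its signal reached the 20th percentile (52.21) on any array, which left 20537. Signals printed are these normalized values.

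The fit was limma 3.58.1 in R 4.3.3 with 8 group means (16 residual and 2.38 prior degrees of freedom). Called means a Benjamini-Hochberg adjusted p under 0.05, taken over all 20537. The script was tested on simulated data. The platform annotation lists 1 gene for 20338 probe sets, and several for 691, and does not list 1551, and names were taken from the first kind. The members had 52 probe sets, and 12 members had several, of which the one with the highest mean log2 signal stands for the gene.

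Values on every array are given for members called in any comparison and for the 3 lowest adjusted p in each O3 and genotype comparison. Of further genes of the chemokine system, the 8 with the lowest adjusted p are named with values, and Ackr4 and Ccrl2 are named besides. Members and lists were chosen with earlier results of these data known. The methods' t-test, named there for O3 in Tnfr+/+ lungs (p of 0.01) and for the genotypes in air (p of 0.05), was run on the same values, and here also for O3 in Tnfr-/- lungs and for the genotypes after O3. For the latter the methods name a two-way ANOVA, which was not run. The t-test was an ordinary one with pooled variance, whereas the study's legends name a moderated t-test. Alternatives were no filter, a filter at the median, a floor of 32, the mean of a gene's probe sets, the signals as deposited, cyclic loess, a fit of the compared groups alone, a replicate block, each array left out, and an actin 3'/5' ratio covariate chosen after seeing the data. With 3 arrays to a group, their number limits the precision. The mice were separate animals.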

Additional observations from a re-analysis of the deposited data

How the results depend on the processing

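The count of members called was within 1.5 times its value for 335 of 364 combinations of comparison and setting, lower for 24 and higher for 5. For Tnfr+/+ lungs at 72 h (4 members) it was 2 with no filter, 2 with a replicate block (Ccl7 and Ccr1), 1 with the actin 3'/5' covariate (Ccl7), and 0 with the compared arrays alone and with the methods' t-test, and it was 0 to 2 with 1 array left out: 0 without Tnfr+/+ air replicate 1 or 3, 1 without Tnfr+/+ O3 72 h replicate 1 (Ccr1), and 2 without Tnfr+/+ air replicate 2, O3 72 h replicate 2 or replicate 3. At 48 h (0 members) it was 0 to 2, with Ccl6 and Ccl7 called without Tnfr+/+ O3 48 h replicate 3. For Tnfr-/- lungs at 24 h (2) it was 1 with a filter at the median, 0 with the compared arrays alone and the t-test, and 0 to 2 with 1 array left out (0 without O3 24 h replicate 1, and 1 without air replicate 1, air replicate 3 or O3 24 h replicate 3), at 48 h (3) 1 with the t-test (Ccl6) and 1 to 3 (1 without O3 48 h replicate 2), and at 72 h (3) 0 with the t-test and 2 to 3. For the mean of both genotypes it was at 24 h (2) 1 with a filter at the median, 4 with a floor of 32 (with Cxcl5 and Cxcl14) and 2 to 3 with 1 array left out, at 48 h (4) 3 to 5 and at 72 h (6) 4 to 7. Between the genotypes it was 1 at 24 h with a floor of 32 (Cxcl5) and 1 with the mean of a gene's probe sets (Cxcl14), against 0. In the mean of the exposures (3) it was 5 with a floor of 32 (with Ccl20 and Cxcl1), 1 with the actin covariate (Ccl20) and 2 to 4 with 1 array left out, and for any difference among the groups (6) 3 with the actin covariate and 4 to 7. With the mean of a gene's probe sets Ccr1 at 24 h in Tnfr-/- lungs was -0.55 and in air between the genotypes 0.31, and Cx3cl1 was 0.21 at 72 h and 0.26 in the mean, the opposite directions to those of the brighter probe sets. In the means of both genotypes Ccl2 and Ccl7 at 24 h, Ccl2, Ccl6 and Ccr1 at 48 h and Ccl6, Ccl7 and Ccr1 at 72 h kept their call with any 1 array left out. Ccl7 at 48 h lost it without Tnfr+/+ O3 48 h replicate 1 or 2, Tnfr+/+ air replicate 1, Tnfr-/- O3 48 h replicate 2 or 3 or Tnfr-/- air replicate 3 (adjusted p up to 0.061), Ccl2 at 72 h without Tnfr+/+ air replicate 3, Tnfr-/- O3 72 h replicate 2 or 3 or Tnfr-/- air replicate 1 (up to 0.07), and Cxcl16 at 72 h without Tnfr+/+ air replicate 3 (0.051). With the actin covariate Ccl2 (adjusted p = 0.12) and Cxcl16 (0.065) lost their call at 72 h and Ccl6, Ccl7, Ccl9 and Ccr1 kept theirs. The cause was not tested for any of these. Replicate numbers did not pair the arrays: deviations of the 84 pairs with the same number correlated between -0.181 and 0.115, and 9 of 24 arrays correlated best with their own number.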
